A study of Mus musculus with 2 samples.

Results

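The 6 Iroquois genes of the mouse, Irx1 to Irx6, sit in 2 clusters of 3 genes each, and this account follows open chromatin across both clusters in the embryonic hindbrain. The Irx1-Irx2-Irx4 window ran over 1.5 Mb of chromosome 13 (chr13:71863723-73360497, mm10) and the Irx3-Irx5-Irx6 window over 1.07 Mb of chromosome 8 (chr8:91701915-92774826, mm10), each reaching 100 kb beyond the outermost gene start in the GENCODE annotation. Together they held 537 of the 231068 open sites of the genome, and each site was given to the nearest Irx start. Within the windows the sites were taken by position and not by a measured value. The genes themselves were chosen with earlier results of these data known.

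In DNase-seq, nuclei are treated with a nuclease that cuts where DNA is not packed away, and sequencing of the released ends shows where chromatin is open. The material was hindbrain from healthy B6NCrl mouse embryos at day 11.5, male and female embryos pooled, in 2 biological replicates of a single group. The tissue is a mixture of dividing progenitors, early neurons and other cells, so a site open in few cells and a site weakly open in many cells cannot be told apart. With 1 group of 2 libraries no test between conditions was possible: values are given per library, and the same quantity over the genome or over all coding genes stands beside them.

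Iroquois genes encode homeodomain proteins of the TALE class. In the vertebrate neural tube they take part in anteroposterior and dorsoventral patterning, among them the placing of the midbrain-hindbrain boundary and of progenitor domains; Irx3 sets a ventral domain by mutual repression with Olig2. Irx4 is best known for its role in the ventricle of the heart, where it holds ventricular identity. The clusters arose by duplication, so that Irx1 and Irx3, Irx2 and Irx5, and Irx4 and Irx6 are counterparts.

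A peak here is a 150 bp stretch with a height given by the depositors, at most 149 in both libraries, and the sources used here do not say how heights were scaled between libraries. A hotspot is a wider enriched region. Overlapping peaks were merged to a site, called shared where both libraries had a peak in it. Over the genome 42.3% of sites were shared, replicate 2 had more peaks (194873) than replicate 1 (150176), and heights of shared sites ranked alike (Spearman's rho 0.840). In the Iroquois windows rho was 0.704 over 205 shared sites, as a description with no test. The tissue label was read against promoter sites of marker genes: 8 of 10 hindbrain genes had a shared promoter site, with Hoxa2 and Hoxb2 peaks in replicate 2 alone, while 5 of 6 forebrain genes, 3 of 8 heart muscle genes and 1 of 6 endothelial genes had one, beside 65.9% of all coding genes. The hindbrain and forebrain counts are both near that share, so these counts do not check the label, and the tissue is given as labelled.

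The sequences that carry the account come from the GRCm38 patch 6 genome and are given 5′ to 3′. The first 3 are stretches under or beside open sites that are alike between the clusters. Capitals mark bases identical in the alignment: for the Irx1 and Irx3 elements to each other, and for the Irx6 element to the Irx1 element. They lie at chr13:72028866-72029165 (plus strand), chr8:91804934-91805233 (plus strand) and chr8:92545582-92545715 (minus strand).
Irx1 element: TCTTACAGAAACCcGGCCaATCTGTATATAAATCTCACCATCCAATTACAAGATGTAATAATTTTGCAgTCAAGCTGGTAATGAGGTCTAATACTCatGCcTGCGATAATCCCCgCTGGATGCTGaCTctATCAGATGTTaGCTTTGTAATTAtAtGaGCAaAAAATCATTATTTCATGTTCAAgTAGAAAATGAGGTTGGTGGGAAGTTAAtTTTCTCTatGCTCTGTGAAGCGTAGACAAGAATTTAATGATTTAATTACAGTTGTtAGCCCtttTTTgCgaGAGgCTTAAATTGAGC
Irx3 element: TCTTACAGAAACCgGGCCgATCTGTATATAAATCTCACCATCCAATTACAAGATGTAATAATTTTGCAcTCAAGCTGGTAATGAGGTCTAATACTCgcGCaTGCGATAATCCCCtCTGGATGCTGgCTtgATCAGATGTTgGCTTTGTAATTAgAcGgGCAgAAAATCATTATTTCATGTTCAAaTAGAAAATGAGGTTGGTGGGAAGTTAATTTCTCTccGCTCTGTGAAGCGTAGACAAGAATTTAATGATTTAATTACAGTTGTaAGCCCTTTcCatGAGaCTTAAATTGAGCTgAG
Irx6 element: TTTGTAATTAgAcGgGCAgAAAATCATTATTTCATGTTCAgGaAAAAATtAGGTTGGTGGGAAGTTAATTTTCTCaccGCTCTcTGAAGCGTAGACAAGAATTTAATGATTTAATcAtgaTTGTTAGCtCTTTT

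The next pair shows the 150 bases before the start of Irx2, the gene with the highest promoter peaks of the family, and of Irx4, whose promoter had no peak in replicate 1. Capitals mark matches to GGGCGG (SP/KLF) and TTGGCA (NFI) on either strand. These stretches lie at chr13:72628670-72628819 and chr13:73260329-73260478, both on the plus strand. RefSeq promoter entries of GRCm38.p6 were found for Irx2, with this start, and for Irx4, with the next annotated start; Irx3 has an entry with another start, and Irx1, Irx5 and Irx6 have none.
Irx2 upstream: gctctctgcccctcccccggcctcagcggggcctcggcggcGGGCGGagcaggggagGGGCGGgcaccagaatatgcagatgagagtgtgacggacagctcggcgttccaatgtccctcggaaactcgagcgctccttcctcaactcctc
Irx4 upstream: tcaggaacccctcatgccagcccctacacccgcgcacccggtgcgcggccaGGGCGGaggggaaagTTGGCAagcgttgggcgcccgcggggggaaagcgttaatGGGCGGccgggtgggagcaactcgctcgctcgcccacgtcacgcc

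The last set is the highest shared distal site of each gene outside coding exons and untranslated regions, on the plus strand. Capitals mark matches, on either strand, to any of the 14 consensus motifs searched: AGNNGGCGC (CTCF core) in the Irx1 and Irx2 sites, CAGCTG (E-box) in the Irx2 and Irx6 sites, TGACAG (Meis) in the Irx4 and Irx6 sites, ACAATG (SOX) in the Irx4 site and GGGCGG in the Irx5 site. The Irx3 site held no match. The sites lie at chr13:71956576-71956745, chr13:72625316-72625465, chr13:73034556-73034765, chr8:91997116-91997325, chr8:92356116-92356285 and chr8:92721676-92721825.
Irx1 distal: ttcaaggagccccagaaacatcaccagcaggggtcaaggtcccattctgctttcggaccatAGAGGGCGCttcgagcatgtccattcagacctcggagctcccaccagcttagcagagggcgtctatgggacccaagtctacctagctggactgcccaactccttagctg
Irx2 distal: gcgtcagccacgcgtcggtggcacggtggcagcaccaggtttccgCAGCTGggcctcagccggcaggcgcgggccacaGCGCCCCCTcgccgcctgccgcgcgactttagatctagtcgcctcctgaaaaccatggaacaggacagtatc
Irx4 distal: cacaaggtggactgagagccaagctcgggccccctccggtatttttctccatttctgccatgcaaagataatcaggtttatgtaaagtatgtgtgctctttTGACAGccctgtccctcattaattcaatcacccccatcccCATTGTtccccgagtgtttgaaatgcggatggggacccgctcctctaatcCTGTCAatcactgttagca
Irx3 distal: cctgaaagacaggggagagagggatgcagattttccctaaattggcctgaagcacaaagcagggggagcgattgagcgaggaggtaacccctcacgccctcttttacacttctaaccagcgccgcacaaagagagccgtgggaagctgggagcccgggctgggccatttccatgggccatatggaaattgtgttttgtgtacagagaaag
Irx5 distal: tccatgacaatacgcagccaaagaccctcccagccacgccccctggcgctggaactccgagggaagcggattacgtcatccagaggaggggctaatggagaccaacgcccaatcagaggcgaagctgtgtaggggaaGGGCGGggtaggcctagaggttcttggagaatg
Irx6 distal: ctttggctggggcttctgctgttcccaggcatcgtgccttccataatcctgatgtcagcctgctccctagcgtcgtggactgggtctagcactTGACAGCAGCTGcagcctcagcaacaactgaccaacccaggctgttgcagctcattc

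Irx1, Irx2, Irx3, Irx5 and Irx6 had promoter peaks in both libraries, while Irx4 had them in replicate 2 alone. A shared promoter site was common over the genome as well, at 65.9% of all coding genes. Irx2 had promoter peaks of height 114 in replicate 1 and 140 in replicate 2, at percentile 75.8 and 93.1 of all open promoters of each library. Its counterpart Irx5 had 110 and 130. Irx3 had 112 and 126, with a further peak of 108 and 126 downstream of its first start. Irx1 had 93 and 131. Irx6 was lower, at 83 and 112. These 5 genes stood on the level of open promoters in general, whose median was 100 (quartiles 73 and 114) in replicate 1 and 126 (quartiles 106 and 134) in replicate 2.

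Irx4 had no peak within 1 kb of its starts in replicate 1, and peaks of 50, 82 and 84 in replicate 2. Thus 5 of the 6 genes had a shared promoter site, where 65.9% of the 21827 coding genes did, a share that 6 genes are too few to be set apart from. By library, 5 of 6 had a promoter peak in replicate 1 (67.1% of all genes) and 6 of 6 in replicate 2 (69.5% of all genes). A promoter peak in replicate 2 with none in replicate 1, as at Irx4, was seen at 3.1% of all genes. The 150 bases before the Irx4 start were GC-rich (72.0%) with 18 CpG dinucleotides and 2 matches to GGGCGG, against 68.0%, 13 and 2 for Irx2. Over 32475 RefSeq promoters the same stretch had a mean GC content of 54.9%, a median of 4 CpGs, and GGGCGG in 28.9%. The promoter sequences of both genes were thus alike in these measures, while that of Irx2 lay wholly in hotspots of both libraries and that of Irx4 in a hotspot of replicate 2 alone.

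**Figure D1:**
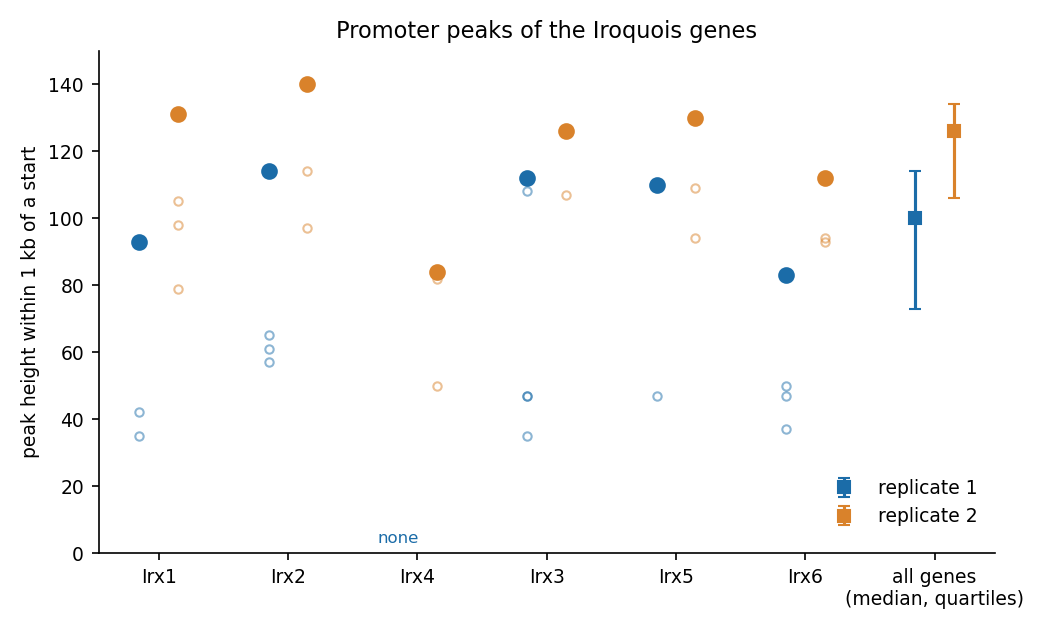
Heights of all peaks within 1 kb of the starts of each Irx gene (vertical axis, deposited height) in replicate 1 and replicate 2, the highest of each library filled, with the median and quartiles of the highest promoter peak of all open genes at the right. Irx4 has peaks in replicate 2 alone, up to 84, and Irx6 is the next lowest at 83 and 112.

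The share of the gene that lay in hotspots differed widely between the Irx genes. Irx1 lay almost wholly in hotspots, with 96.7% of the gene covered in replicate 1 and 99.5% in replicate 2. Irx2 was covered over 84.4% and 92.9%, Irx3 over 70.0% and 97.1%, and Irx5 over 49.0% and 50.9%. Irx6 was covered over 11.0% in replicate 1 and 42.5% in replicate 2. Irx4 was covered over 9.42% in replicate 1 and 96.2% in replicate 2. In replicate 2 the cover of Irx4 was close to that of Irx1 and Irx3, and in replicate 1 it was the lowest of the family.

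Hotspot length within 10 kb of the starts again set Irx4 and Irx6 low in replicate 1, but it placed Irx5 with Irx1, Irx2 and Irx3. The covered share of a gene depends on its annotated length, which was not adjusted for. Irx5 had 12.1 kb in replicate 1 and 13.6 kb in replicate 2, Irx2 had 11.6 and 14.4 kb, Irx1 had 8.78 and 11.6 kb, and Irx3 had 8.72 and 11.3 kb. Irx6 had 1.76 and 5.45 kb. Irx4 had 0.860 and 10.8 kb. The start itself lay in a hotspot of both libraries at Irx1 (2887 and 2948 bp wide), Irx2 (3967 and 6387 bp), Irx3 (1708 and 4390 bp) and Irx5 (3218 and 4224 bp), and in a hotspot of replicate 2 alone at Irx6 (2759 bp) and Irx4 (6531 bp).

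**Figure D2:**
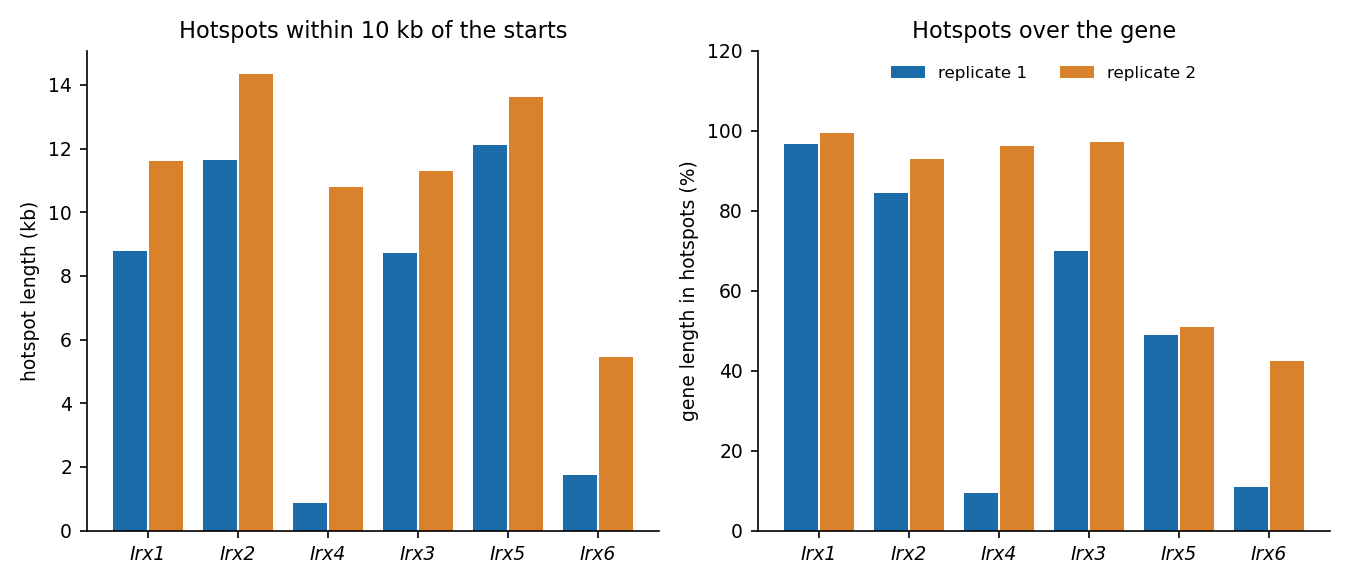
Hotspot length within 10 kb of the starts (left, kb) and share of the gene in hotspots (right, %) for each Irx gene in replicate 1 and replicate 2. Irx4 has 0.860 kb in replicate 1 and 10.8 kb in replicate 2, while Irx1, Irx2, Irx3 and Irx5 have at least 8.72 kb in both.

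The hotspot over the Irx4 start (chr13:73259523-73266053) was the widest of its window in replicate 2. It held 12 peaks of that library and was covered by replicate 1 hotspots over 11.0% of its length. Inside the gene, 18 sites were found: all 18 had a replicate 2 peak and 5 had a replicate 1 peak. The 4 shared sites under this hotspot lay in introns and a coding exon, with heights of 34 and 94, 47 and 99, 35 and 86, and 63 and 96, so replicate 1 had peaks inside the gene though none at its start. A second wide hotspot followed over the far end of the gene (chr13:73267516-73272724, 5209 bp, 9 peaks) and was covered over 12.4% by replicate 1. The widest hotspot of the window in replicate 1 was that over the Irx2 start. On chromosome 8 the widest of both libraries lay inside Irx5 (chr8:92361404-92366192, 4789 bp, in replicate 1 and chr8:92363007-92367565, 4559 bp, in replicate 2) and were covered by the other library over 98.9% and 95%.

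Genes with at least 90% of their length in replicate 2 hotspots and under 10% in replicate 1 hotspots, as Irx4, made up 0.246% of all coding genes, 54 in number, and those with at least 90% in replicate 2, whatever replicate 1 showed, 1.55%. Among the 54 were the homeobox genes Dlx1, Dlx2, Dlx5, Hoxa2, Nkx2-5, Nkx2-9, Six3, Mnx1 and Pdx1, and the signalling gene Wnt1. Genes of other kinds were among them too, such as Krtcap3, Gp1bb, Oxt and Slc32a1. The share of homeobox genes was not counted, in the list or over all genes. These bounds and names were chosen after the values of Irx4 had been seen. The cause of the difference between the libraries was not tested.

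The Irx starts were surrounded by many shared sites. Irx2 had 24 shared sites within 10 kb of its start, a number that 0.0550% of coding genes reached. Irx1 had 16 (reached by 0.403% of genes), Irx5 had 13 (0.852%) and Irx3 had 11 (1.53%). Irx4 and Irx6 had 5 each (16.5%). The median coding gene had 2 shared sites and the 95th percentile was 7. By shared sites the first 4 genes thus stood in the upper tail and the counterparts Irx4 and Irx6 did not. With sites of 1 library counted too, Irx4 had 22 within 10 kb and Irx6 had 12, so these counterparts were less alike. Irx1 had 28 such sites, Irx2 32, Irx5 33 and Irx3 29.

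**Figure D3:**
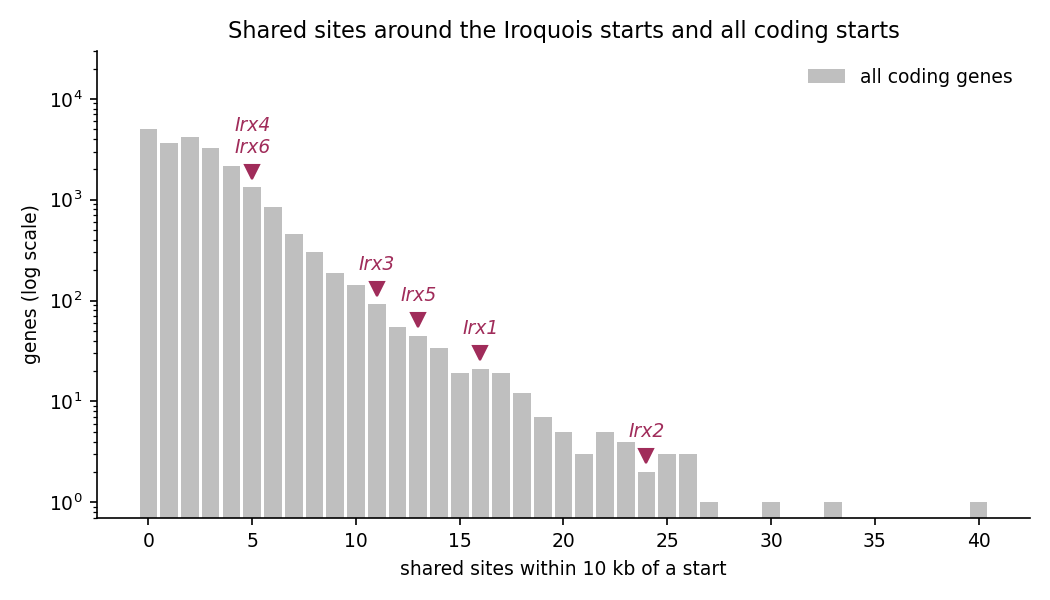
Number of shared sites within 10 kb of a start (horizontal axis) for all 21827 coding genes (bars, number of genes on a log scale), with the Irx genes marked. Irx2 with 24, Irx1 with 16, Irx5 with 13 and Irx3 with 11 lie in the upper tail, and Irx4 and Irx6 with 5 each lie nearer the median of 2.

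Several neural tube patterning genes that act beside the Iroquois genes had counts of this size. Of the 22 genes of that list, 18 had a shared promoter site, where 65.9% of all coding genes did. Over all open promoters the median heights were 100 in replicate 1 and 126 in replicate 2. They were lower, at 90 and 107, over the listed genes with a promoter peak in that library. The highest were Nkx6-1 (118 and 134), which sets ventral progenitor domains, Msx1 (113 and 129), a dorsal midline factor, and Meis1 (100 and 131), a TALE cofactor of Hox proteins. Pax6, a progenitor factor, had 30 shared sites within 10 kb, Otx2, which marks the forebrain and midbrain, had 25, and Olig2, the partner of Irx3, had 11, the number of Irx3 itself. Without a shared promoter site were Dbx2, with no promoter peak in either library, Nkx2-9 (replicate 2 alone, 87), Six3 (replicate 2 alone, 106) and Fgf8, whose peaks of 42 and 88 did not overlap.

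Across the whole windows, shared sites were denser than over the genome. The Irx1-Irx2-Irx4 window held 287 sites, 114 of them shared (39.7%, exact 95% interval 34.0% to 45.6%), 49 in replicate 1 alone and 124 in replicate 2 alone. The Irx3-Irx5-Irx6 window held 250 sites, 91 of them shared (36.4%, 30.4% to 42.7%), 58 in replicate 1 alone and 101 in replicate 2 alone. This made 7.62 and 8.48 shared sites per 100 kb, against 3.69 over the genome, or 2.16 times the genome for both windows together. The excess was not rare: of consecutive windows of the same length over the genome, 10.7% held at least 114 shared sites (median 48) and 8.36% held at least 91 (median 33). The share of sites that were shared, 38.2% (34.0% to 42.4%) over both windows, was close to the 42.3% of the genome. The intervals cover counting error only.

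**Figure D4:**
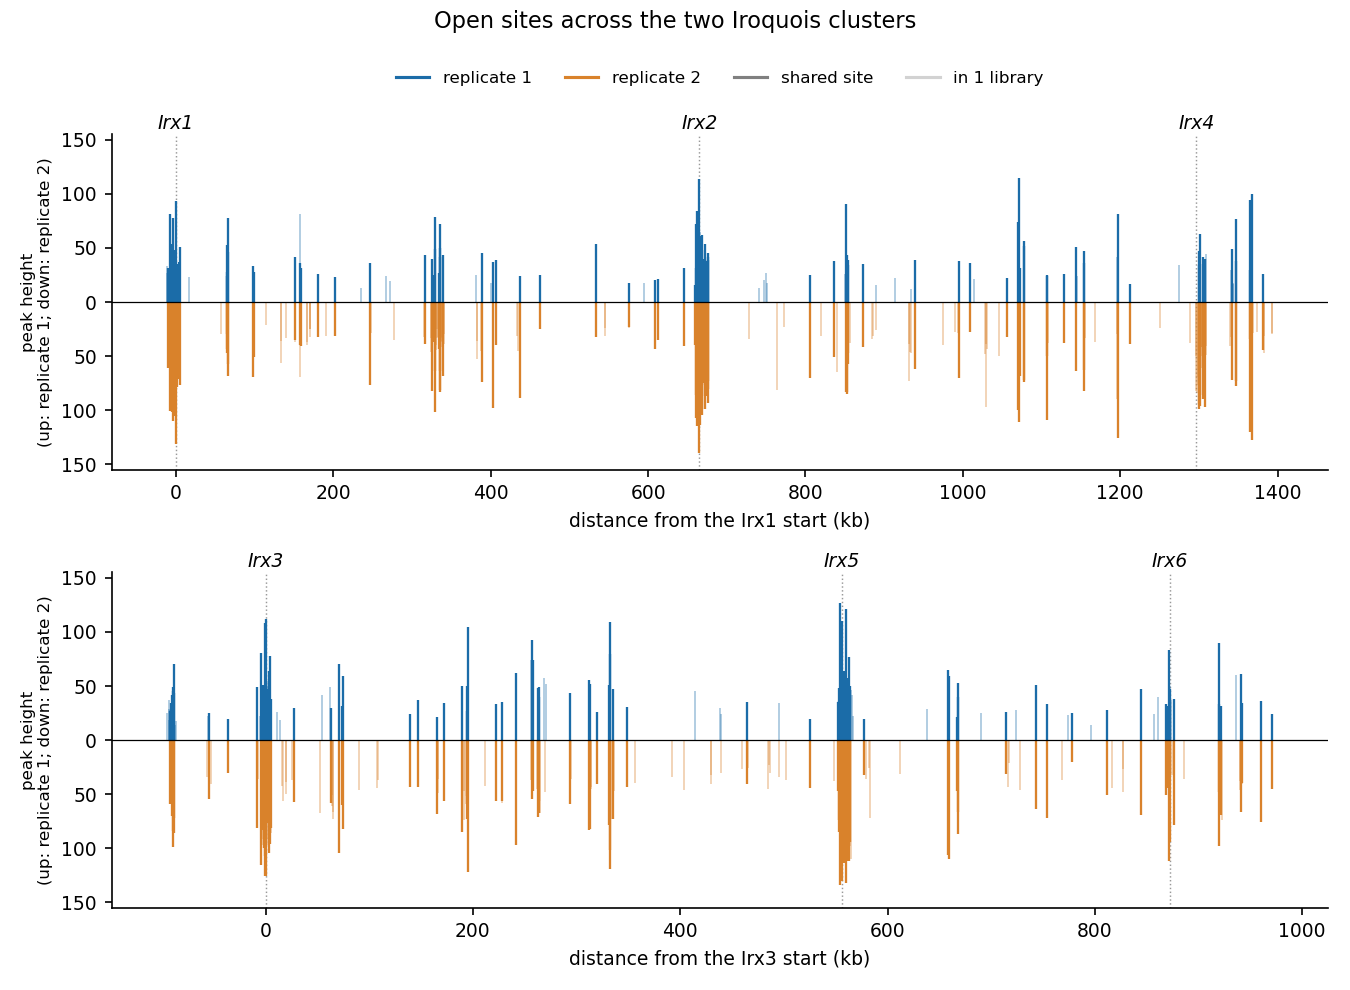
Heights of all peaks across the Irx1-Irx2-Irx4 window (top) and the Irx3-Irx5-Irx6 window (bottom), replicate 1 upward and replicate 2 downward, by distance in kb from the Irx1 or Irx3 start, with sites seen in 1 library pale. Peaks crowd at Irx1, Irx2, Irx3 and Irx5 in both libraries and at Irx4 mainly in replicate 2. Single tall peaks stand between the genes, such as the one at 115 and 111 upstream of Irx4 and the one at 105 and 122 upstream of Irx3.

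Shared sites crowded at the starts, yet the windows were also dense away from them. Within 10 kb of an Irx start lay 156 sites, of which 74 were shared (47.4%, 39.4% to 55.6%), and beyond it 381 sites, of which 131 were shared (34.4%, 29.6% to 39.4%). Leaving out the DNA within 10 kb of any coding start, both in the windows and over the genome, the windows held 5.28 shared sites per 100 kb and the genome 2.38, or 2.21 times the genome, a comparison added after seeing the data. The density away from coding starts was thus as far above the genome's as the density of the whole windows. Between the Irx genes it was 5.12 per 100 kb from Irx1 to Irx2, 4.58 from Irx2 to Irx4, 5.98 from Irx3 to Irx5 and 4.05 from Irx5 to Irx6, all leaving out 10 kb at each start. The outer flank of Irx1 stood apart: over 10 kb outside its start it held 2 sites, none of them shared, while the outer flanks of Irx4, Irx3 and Irx6 held 8.89, 11.1 and 8.89 shared sites per 100 kb. Of the 8 shared sites outside Irx4, however, 7 were nearest to Mrpl36 or Ndufs6 and 3 were promoter sites of those genes. In the 150 kb beyond the windows there were 1.33 shared sites per 100 kb on the Irx1 side, 4.67 on the Irx4 side, 7.33 on the Irx3 side and 3.33 on the Irx6 side.

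The libraries also differed in how they ranked the sites near the Irx starts. Shared sites within 10 kb of an Irx start had median heights of 47 in replicate 1 and 94 in replicate 2. Their rank within the library was higher in replicate 2 by a median of 15.9 percentage points, and higher there in 65 of 74 sites (87.8%). Over the genome, sites within 10 kb of any coding start had medians of 56 and 92, a shift of 4.92 points, and 75% ranked higher in replicate 2. Beyond 10 kb the Iroquois sites had medians of 39 and 64, a shift of 5.66 points and a higher rank in replicate 2 in 88 of 131 (67.2%), against medians of 41 and 62, 1.89 points and 56.6% over the genome. The ranks come from lists of unequal length and the sets were not matched on height, the Irx sites being lower in replicate 1, so the difference between the shifts is a description. Sites within 10 kb of an Irx start had a mean GC content of 56.0%, and those beyond it 50.9%. Whether GC content, depth or cell makeup takes part in the shift was not tested.

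The cover of the windows by hotspots differed little between libraries once set against the genome. Hotspots covered 54.0 kb (3.61%) of the Irx1-Irx2-Irx4 window in replicate 1 and 101.7 kb (6.80%) in replicate 2, with mean widths of 425 and 702 bp. They covered 52.4 kb (4.89%) of the Irx3-Irx5-Irx6 window in replicate 1 and 76.7 kb (7.15%) in replicate 2, with mean widths of 426 and 544 bp. Against 1.69% and 2.79% of the genome, this was 2.14 and 2.44 times for the first window and 2.90 and 2.57 times for the second. Set beside them, the 4 Hox cluster windows and the Dlx1-Dlx2 and Dlx5-Dlx6 windows had 1.33 to 2.45 times the genome's cover in replicate 1 and 5.60 to 9.62 times in replicate 2. In those 6 windows 13.2% to 27.2% of sites were shared, lower than in either Iroquois window. The gap between libraries that marks the Hox and Dlx windows was found inside the Iroquois windows around Irx4 and, to a lesser extent, Irx6, as given above, and not over the windows as a whole.

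**Figure D5:**
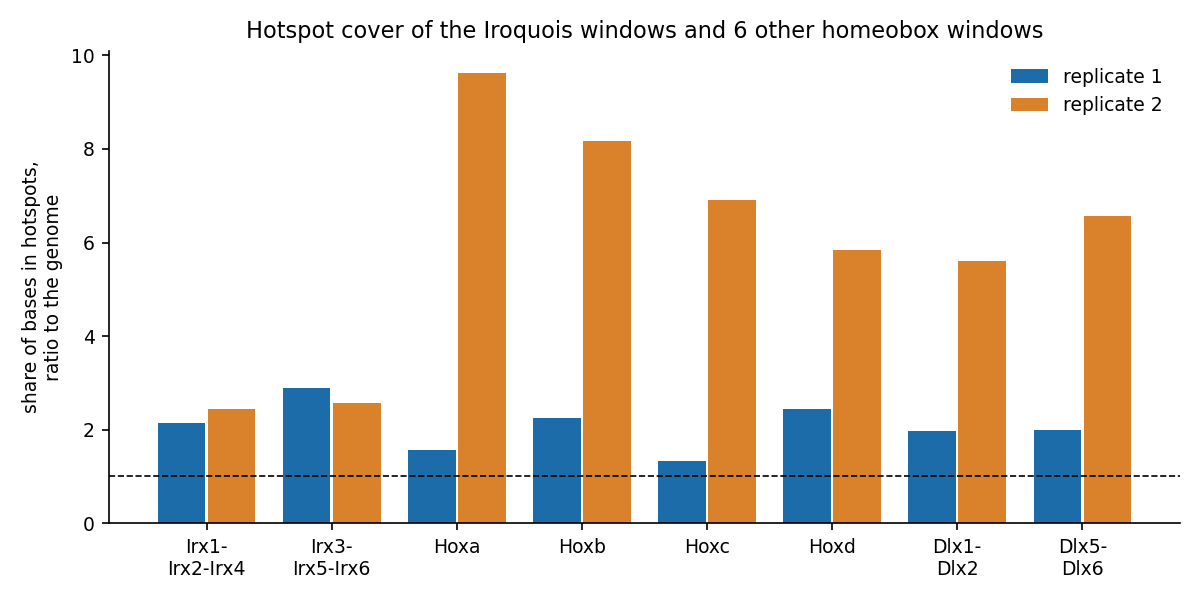
Share of bases in hotspots as a ratio to the same share over the genome (vertical axis; dashed line at 1) in replicate 1 and replicate 2 for the Iroquois windows and 6 other homeobox windows. The Iroquois windows lie between 2.14 and 2.90 in both libraries, while the Hox and Dlx windows lie at or under 2.45 in replicate 1 and at or over 5.60 in replicate 2.

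Most shared sites of the clusters lay between genes. Of the 205, 134 (65.4%) were between annotated genes, 20 in introns, 10 in coding exons and 10 in untranslated regions of coding genes, and 30 in exons or introns of noncoding genes. These shares were not computed over the genome, so they do not set the clusters apart from it. By nearest start, Irx2 had 112 sites with 51 shared, Irx3 had 115 with 42, Irx1 had 87 with 34, Irx5 had 86 with 30, Irx4 had 88 with 29 and Irx6 had 49 with 19. Promoter sites of any coding gene were 16 of the shared sites, and 189 were distal.

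The distal sites were of ordinary height, apart from a few. Their median heights were 39 in replicate 1 and 71 in replicate 2, against 41 and 64 over the 71356 shared distal sites of the genome. In both libraries 5 of 189 (2.65%, exact 95% interval 0.864% to 6.07%) were at or above the 95th percentile of distal sites, a share of 3.24% over the genome. The highest was at chr8:92356116-92356285, 1.43 kb before the Irx5 start and at the start of Crnde, a noncoding gene read from there the other way, with 127 and 134. The next was in an intron of Irx5 (chr8:92362136-92362305, 121 and 132). In both libraries the site before Irx5 was thus higher than the Irx5 promoter itself (110 and 130).

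The other 3 stood far from any Irx start. One lay 195 kb upstream of Irx3, in the direction of Irx5, within 1 kb of the start of the long noncoding gene Gm36843 (chr8:91997116-91997325, 105 and 122). Another was 223 kb upstream of Irx5 (chr8:92134196-92134345, 109 and 119). The third was 226 kb upstream of Irx4, in the direction of Irx2 (chr13:73034556-73034765, 115 and 111). The only other coding genes with a start in the windows were Mrpl36, for a mitochondrial ribosomal protein (promoter peaks 100 and 128), and Ndufs6, for a subunit of respiratory complex I (94 and 120), both past Irx4. Their promoters were open in both libraries, and 7 shared sites were nearest to them among coding genes, all counted with Irx4 by the rule.

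Among the remaining named sites, the highest distal ones of Irx1 were a coding exon site 4.06 kb into the gene (chr13:71959576-71959745, 78 and 110), a site 7.06 kb past the start and within 1 kb of the start of the noncoding gene Gm40999 (81 and 101), and a site 329 kb upstream (chr13:72292556-72292745, 79 and 102). Those of Irx2 lay 3.43 kb (84 and 115) and 4.69 kb (chr13:72624036-72624225, 72 and 107) upstream and 187 kb downstream in an intron of D730050B12Rik (chr13:72815276-72815445, 91 and 83). Those of Irx3, after the one above, lay 4.18 kb downstream of its start, past the gene (chr8:91797656-91797825, 81 and 115), and 4.21 kb upstream in an exon of the antisense gene Irx3os (chr8:91806196-91806365, 78 and 96). Irx6 had the lowest set: 90 and 98 at 46.9 kb downstream, 61 and 66 at 68.4 kb downstream (chr8:92743156-92743305), and 51 and 64 at 129 kb upstream (chr8:92545416-92545565).

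The highest sites seen in replicate 1 alone were mostly far from the starts. On chromosome 13 they had heights of 89 (chr13:73034976-73035125, beside the tall site upstream of Irx4), 81 (158 kb upstream of Irx1) and 65 (in an intron of Irx2). On chromosome 8 they had 74 (256 kb upstream of Irx3), 60 (63.4 kb downstream of Irx6) and 57 (269 kb upstream of Irx3). In replicate 2 alone the highest on chromosome 8 lay all in Irx5, with 110 in an intron and 109 and 103 in coding exons. On chromosome 13 they had 98 in an intron of Irx1, 97 at 267 kb upstream of Irx4 and 96 at 11.5 kb downstream of the Irx4 start. Alone means only that no peak of the other library overlapped. The sites of 109 and 98 lay inside replicate 1 hotspots, and that of 65 inside a replicate 2 hotspot. The hotspots holding the sites of 110 and 89 were covered by the other library over 95% and 91.7%, and that holding the site of 96 over 12.4%. The remaining sites were not compared in this way.

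Long stretches held no site at all. The longest on chromosome 13 was the 88.4 kb from the edge of the window to the first site outside Irx1 (chr13:71863723-71952115). Between sites, the longest ran for 70.9 kb between Irx1 and Irx2 (chr13:72426246-72497135) on chromosome 13 and for 35.7 kb between Irx3 and Irx5 (chr8:92158486-92194155) on chromosome 8. The longest stretches without a shared site were 128.9 kb, downstream of Irx2, and 114.9 kb, between Irx3 and Irx5. Noncoding starts had sites as well: of 24 noncoding genes with a start in the windows, pseudogenes and small RNA genes left out, 15 had a site within 1 kb of a start and 12 a shared one. The same shares over the noncoding genes of the genome were not computed, so these are counts only. Gm20554 at Irx2, Irx3os at Irx3 and Crnde at Irx5 share the open promoter region of their neighbour.

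For most motifs the interval for the share of shared distal sites with a match in the central 150 bp took in the genome's share. TAATTA, the core letters bound by many homeodomain proteins, was found in 12 of 189 shared distal sites (6.35%, exact 95% interval 3.32% to 10.8%), against 2.92% over the genome. The CTCF core AGNNGGCGC was found in 3.70% (1.5% to 7.48%), against 7.75%. For both, the genome's share lay outside the interval. The intervals treat sites as independent, though these are neighbours in 2 windows, with median gaps of 0.89 and 1.71 kb between shared sites. The differences are thus descriptions and not tests. GTTGCCAT (RFX, against 2.11%) and TGATTNAT (Pbx-Hox, against 1.77%) were found in 1 site each, or 0.529% (0.0134% to 2.91%), an interval that takes in the genome's shares. ACANNTGT, the palindrome bound by Iroquois proteins, was found in 4.23% (1.84% to 8.17%), against 5.30%. Matches to CAGCTG (18.0% against 16.0%), TGACAG (14.3% against 13.4%), ACAATG (10.1% against 9.70%), TTGGCA (8.99% against 8.25%) and GGGCGG (10.1% against 9.01%) were near the genome's. ATGCAAAT (POU, 2.65% against 1.41%), CTTTGAT (TCF/LEF, 3.17% against 2.48%), AGGTCA (nuclear receptor, 8.47% against 10.5%) and TGGGTGGTC (GLI, none of 189 against 0.242%) had intervals that took in the genome's share. The 14 motifs were searched on both strands, no adjustment was made for their number, and mean GC content was 54.0% in these sites against 51.9% over the genome. Of the 16 promoter sites, 4 (25%, 7.27% to 52.4%) held GGGCGG, against 43.2% over the genome.

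The clusters held sites that were alike in sequence. A search of the 287 sites of chromosome 13 against the 250 of chromosome 8, each with 150 bp on both sides, gave 27 alignments, and the same search of both windows against the 822 sites of the Hox and Dlx windows gave 2. Of the 27, 14 lay in coding exons, all in exons of the Irx genes themselves. The other 13 lay outside coding exons, joined 8 sites of chromosome 13 with 9 of chromosome 8, and had identities of 69.8% to 90.4%. They came from 7 separate pairs of stretches, since neighbouring sites share their flanks; 4 of the 13 alignments reached into both sites and 3 into neither, lying in the flanks. This search was added after the data had been seen.

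The longest noncoding alignment was the pair of elements printed above. It joined the site 65.4 kb upstream of Irx1 with one 2.98 kb upstream of Irx3, in an exon of Irx3os, at 90.4% identity over 311 aligned positions in the same orientation. At the Irx1 element, a replicate 1 peak of height 29 lay inside the aligned stretch and a replicate 2 peak of 45 began just past it. A shared site of 24 and 30 stood on its other side. At the Irx3 element, a replicate 2 peak of height 66 lay inside the stretch, with a replicate 1 peak of 55 before it and a shared site of 64 and 104 behind it. Both copies thus had peaks of both libraries in or beside them, with no shared site wholly inside. Hotspots covered 52.4% of the Irx1 element in replicate 1 and 28.3% in replicate 2, and 25.7% and 84.7% of the Irx3 element.

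A further stretch, between Irx5 and Irx6, was alike to both. It matched the Irx1 element at 87.4% over 135 positions and the Irx3 element at 89.6% over 134 positions, and lay beside a shared site of 51 and 64, one of the named distal sites of Irx6. Hotspots covered 95.5% of it in replicate 1 and 42.5% in replicate 2. The Irx1 and Irx3 elements held TAATTA at 2 places each and ACANNTGT at 1, and the Irx6 element held TAATTA at 1. In 300 bp around shared distal sites of the genome, 0.547% held TAATTA at least 2 times, 7.41% at least once, and 10.4% held ACANNTGT at least once. This is not a matched comparison. The peaks inside the Irx1 and Irx3 elements had GC contents of 32.7% and 38%, against a mean of 51.9% over shared distal sites of the genome. The elements were picked for being alike, so their matches are not separate findings, and the Irx6 element is shorter than 300 bp. A match is a string of letters and not a measured binding.

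A shorter pair joined the counterparts Irx4 and Irx6: shared sites 143 kb upstream of Irx4 (chr13:73117736-73117945, 36 and 63) and 119 kb upstream of Irx6 (chr8:92555276-92555465, 33 and 72) were 89.1% identical over 46 positions, which lay inside the first site and beside the second. For Irx2 and Irx5, a stretch at a replicate 2 site 98.6 kb downstream of the Irx2 start (height 81) was 86.5% identical over 52 positions to one in an intron of Irx5, beside the highest site of replicate 2 alone in that window (height 110). The remaining noncoding pairs did not join counterparts, by nearest start. A site of Irx2 matched a site of Irx3 at 86.25% over 80 positions. A site of Irx4 matched sites of Irx3 at 73.4% over 79 positions and at 69.8% over 116.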

How the data were processed

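DNase-seq of 2 biological replicates of mouse hindbrain was aligned by the authors to mm10, and peaks and hotspots were called per replicate, per the text deposited beside the files. Aligner, callers, filters and depth: not given in the sources used here. Peak heights are a signal value deposited with each peak. Hotspots were deposited with a −log10 q-value (1.30 to 6, and 100 for all beyond) and a score that follows it.

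Only chromosomes 1 to 19, X and Y were analysed, without repeated entries (32 in replicate 1 and 60 in replicate 2). Peaks overlapping by at least 1 bp were merged to sites. Starts were those of 21827 protein-coding genes of the GENCODE M21 basic set. A promoter site had an edge within 1 kb of a start. Ranks are percentiles of height within a library. Consecutive windows began at 3 Mb of each chromosome and kept at least 90% sequenced bases. Intervals are exact Clopper-Pearson. Sites were aligned with blastn 2.17.0 (word size 7, e-value at most 1e-06, repeats masked). The code was tested on simulated data. Software was pysam 0.24.0, scipy 1.17.1, pandas 2.3.3, numpy 2.4.6, matplotlib 3.10.9 and Python 3.11.15.

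The members, lists, motifs and the rule for named genes were chosen with earlier results of these data known. Named were all Irx genes, the 3 highest shared distal sites of each, the 3 highest sites of each window in 1 library alone, the other coding genes, the widest hotspots, the longest stretches without a site, and the 3 highest members of the patterning list with those lacking a shared promoter site. Alternatives were other overlaps, height and hotspot thresholds, list lengths, margins, promoter windows and each library alone.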

Additional observations from a re-analysis of the deposited data

How the results depend on the processing

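Of 45 alternative values for 6 results, 29 stayed close to the value given and 16 moved, a count being close within 1.5 times, the shared percentage within its interval, and a fold within the SD of the libraries' own values; the density of the windows stayed above the genome's in every alternative run. The number of Irx genes with a shared promoter site was 5 in all of them except replicate 2 alone, which gave 6. Requiring an overlap of 75 bp left 27.4% of Iroquois sites shared and a density of 1.94 times the genome. Peaks above the median height of their library gave 62 shared sites in the Irx1-Irx2-Irx4 window and 52 in the Irx3-Irx5-Irx6 window, at 1.97 times the genome. Peaks in hotspots at the highest value gave 58 and 36, at 1.91 times, and hotspots at that value alone covered 2.39 times the genome's share. A margin of 250 kb gave a density of 1.97 times and a cover of 2.27 times the genome. Leaving out one library, sites of the other numbered 163 to 238 in the Irx1-Irx2-Irx4 window and 149 to 194 in the Irx3-Irx5-Irx6 window, with densities of 2.23 to 2.39 times, covers of 2.46 to 2.49 times, and 5 to 6 open Irx promoters. These counts take all sites of 1 library and were set against shared sites, an unlike measure. The main cover of 2.47 times was the mean of the libraries' own values, so each library alone was bound to stay close to it. Leaving out 10 kb around each Irx start, added after seeing the data, in the windows alone gave 1.45 times, an unlike comparison since the genome kept its starts; leaving out 10 kb around every coding start on both sides gave 2.21 times. Causes of these shifts other than the smaller lists were not tested. No paired analysis was possible because the series has 1 group. Depth is unknown, so a site missing from one library may be undetected rather than closed, the scale of heights cannot be set between libraries, and 2 libraries give no error beyond their own difference.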

Other observations

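The gene next to the Irx3-Irx5-Irx6 window is Fto, whose long introns lie 33.5 kb and more from the window's edge on the Irx3 side. The Fto gene (chr8:91313525-91668439) held 74 sites, 21 of them shared, or 5.92 shared sites per 100 kb, against 3.69 over the genome. Its highest shared heights were 92 in replicate 1 and 102 in replicate 2.

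The noncoding gene D730050B12Rik, in the interval from Irx2 to Irx4, had 5 sites within 1 kb of its starts, 3 of them shared and up to 43 in replicate 1 and 85 in replicate 2. Gm36325, on the outer side of Irx3, had 3 sites, 2 of them shared and up to 70 and 86. Eprn, past Irx4, had 2 sites and no shared one.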
